A study of Mus musculus with 12 samples.

Results

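The 10 genes described here govern the fate of arginine, itaconate and tryptophan in macrophages, and were followed by RNA-seq in bone marrow-derived macrophages (BMDM) of wild type (wt) and Treml4-/- mice. They were taken from the deposited table by symbol: the arginine transporter Slc7a2, Nos2, Gch1, Ass1, Asl, Arg1, Arg2, Odc1, Irg1 (the older symbol of Acod1) and Ido1. These are 10 of 43280 genes in the table, and all 10 were among the 12086 genes tested, which reached 1 CPM (reads scaled to library size) in at least 2 libraries. Arg1 and Ido1 passed that filter only through the LPS libraries.

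The mice were on the C57BL6 background in both genotypes, and their ages are not given in the sources used here. Marrow cells were grown with M-CSF, the growth factor that drives macrophage differentiation, and were then given vehicle (M0) or 100 ng/ml LPS for 8 h (M1-8h) or 12 h (M1-12h). LPS is a bacterial cell wall component that activates macrophages through TLR4. Each of the 6 conditions had 2 biological replicates, 12 libraries in all. The Treml4-/- cells had also differentiated without the gene. M1 here means LPS alone. Whether each replicate was a separate mouse is not stated, so the p-values below measure the spread between these cultures.

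Libraries held 48008751 to 58500792 reads, and 3 reads correspond to 0.0513 to 0.0625 CPM. Treml4 had 198 to 663 reads in the 6 wt libraries and 0 reads in the 6 Treml4-/- libraries. All 8 macrophage markers looked at exceeded 1 CPM in every library, and their sum was 20712 to 27907 CPM at M0 and 9996 to 13416 CPM after LPS. The single markers did not share this direction. In each of the 4 comparisons with M0, 3 were called higher and 3 lower by the limma test defined below. Their median log2 change was between -0.03 and 0.13. Scaled by the median of ratios, which sets each library by its median gene rather than its total, the sums overlapped, at 13613 to 20268 and 11592 to 16980. The part of this shift in the results below was not tested. Summed neutrophil and precursor markers came to 48.1 to 158 CPM, lymphocyte markers to at most 0.347 CPM and mast cell and basophil markers to at most 0.244 CPM. Summed stromal and endothelial markers were 1.20 to 3.78 CPM at M0 and 9.77 to 17.98 CPM after LPS, where only 2 of the 6 genes reached 1 CPM in a library. In bulk cultures, fewer cells of a type and less RNA per cell cannot be told apart.

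Arginine stands at a branch point in macrophages. The inducible nitric oxide synthase encoded by Nos2 turns it into nitric oxide and citrulline, while the arginases Arg1 and Arg2 turn it into ornithine and urea. Citrulline can be rebuilt into arginine by argininosuccinate synthase (Ass1) and argininosuccinate lyase (Asl). Slc7a2 brings arginine into the cell, Gch1 starts synthesis of tetrahydrobiopterin, the cofactor that nitric oxide synthase needs, and Odc1 turns ornithine into putrescine, the first polyamine. Irg1 makes itaconate from cis-aconitate of the tricarboxylic acid cycle, and itaconate inhibits succinate dehydrogenase. Ido1 catalyses the first step of tryptophan breakdown to kynurenine.

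Measured as CPM, 9 of the 10 genes were higher and Asl was lower after LPS, at both times and in both genotypes. The rises in mean CPM ran from 1.83-fold for Odc1 (Treml4-/-, 12 h) to 3546-fold for Nos2 (wt, 8 h). A gene was called where the limma test gave an adjusted p under 0.05 and a change of at least 1.4-fold, on the scale of log2(CPM + 1). At 8 h in wt, 9 members were called higher and Asl lower, where 16.3% of all genes tested were called higher and 60.6% lower. In wt at 12 h the counts were again 9 and 1, against 16.2% and 60.4% of all genes. Treml4-/- macrophages gave 9 and 1 at 8 h, against 17.7% and 58.1% of all genes, and 9 and 1 at 12 h, against 16.1% and 59.6%. The 2 genotypes are separate cultures, each compared with its own M0. Arg1 and Ido1 were tested only because of their LPS libraries, and the members were chosen with earlier results of these data known. These counts therefore describe the members and are not independent support for a response. Within a genotype, LPS and M0 libraries did not overlap for 91.1 to 94.2% of all genes tested, so a lack of overlap named below is common.

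The large share of genes called lower moves with the scaling. With CPM, the median log2 change of all genes after LPS was -0.744 at 8 h and -0.768 at 12 h in wt, and -0.696 and -0.739 in Treml4-/-. Scaling by the median of ratios brought these medians to between -0.02 and 0.00 (log2). The 9 rises were called under that scaling too, in all 4 comparisons. The background shares were then 31.7% higher and 30.5% lower in wt at 8 h, 33.8% and 32.7% in wt at 12 h, 31.9% and 32.2% in Treml4-/- at 8 h, and 33.2% and 32.3% in Treml4-/- at 12 h. Asl was called lower only in Treml4-/- at 8 h once scaled this way. Changes reported below are those of CPM unless another scale is named.

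**Figure D1:**
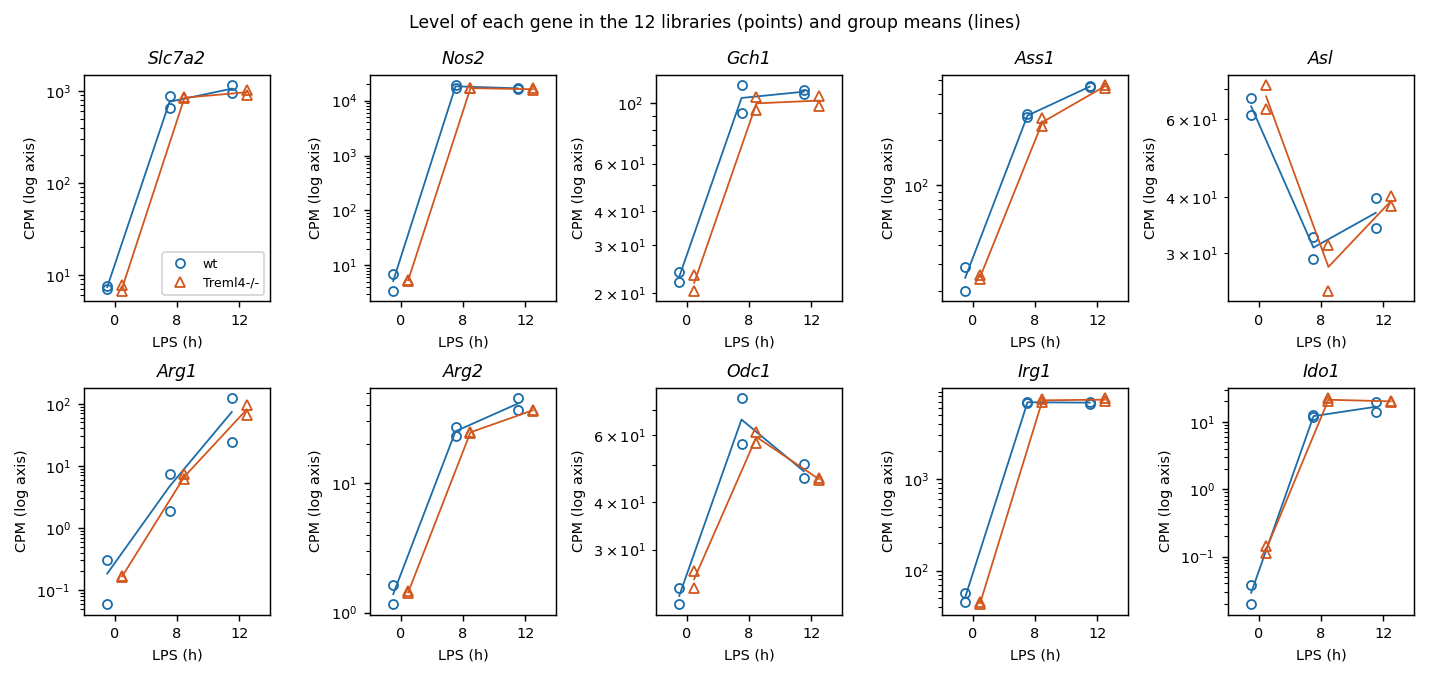
CPM of each gene (log axis, a separate range in every panel) against hours of LPS, with circles for the wt libraries, triangles for the Treml4-/- libraries and lines through the means of 2 replicates. Nos2 and Irg1 reach their LPS level by 8 h, Arg1 climbs between every time point, Odc1 is higher at 8 than at 12 h, and Asl alone is lower after LPS than at M0.

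The promoters of 4 members could be matched to RefSeq sequences of build GRCm38.p6. The 3 shown were chosen because they span the response: Irg1, whose mean CPM rose at least 134-fold, Gch1 at 4.57-fold or more, and Odc1, which rose by no more than 2.91-fold. Each line gives the 250 bases before the RefSeq start site, read 5′ to 3′ on the gene's strand, and capitals mark motif matches found by search.
Irg1 (chr14:103046762-103047011, plus strand): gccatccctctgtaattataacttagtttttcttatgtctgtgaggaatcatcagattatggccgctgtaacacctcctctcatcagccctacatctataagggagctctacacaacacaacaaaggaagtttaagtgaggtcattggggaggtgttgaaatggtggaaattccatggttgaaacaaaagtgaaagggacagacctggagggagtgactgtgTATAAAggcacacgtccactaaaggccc
Gch1 (chr14:47189414-47189663, minus strand): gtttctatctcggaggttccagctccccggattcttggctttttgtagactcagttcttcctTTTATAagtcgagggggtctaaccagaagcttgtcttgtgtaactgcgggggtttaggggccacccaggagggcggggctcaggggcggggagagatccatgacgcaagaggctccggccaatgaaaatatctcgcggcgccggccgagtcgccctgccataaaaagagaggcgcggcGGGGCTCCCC
Odc1 (chr12:17544623-17544872, plus strand): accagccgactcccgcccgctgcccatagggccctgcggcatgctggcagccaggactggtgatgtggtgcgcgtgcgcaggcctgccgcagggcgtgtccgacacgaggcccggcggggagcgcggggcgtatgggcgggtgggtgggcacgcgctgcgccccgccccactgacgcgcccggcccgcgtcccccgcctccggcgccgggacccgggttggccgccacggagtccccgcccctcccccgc

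The Irg1 window was the least rich in G and C, at 44.4%, with 2 CG dinucleotides. The Odc1 window had 80% G and C and 35 CG dinucleotides. Gch1 stood between them with 59.2% and 17, and the fourth promoter, that of Ass1, had 75.6% and 23. The mean CPM of Ass1 rose 10.6- to 18.4-fold, more than that of Gch1. Over the 4 windows, G and C content was thus not in the order of the rises, and a link was not tested. The medians over 32851 promoters were 52.4% and 6. The 6 motifs searched on both strands were the NF-kB consensus, AP-1 (TGANTCA), the interferon-stimulated response element (a pair of GAAA set 2 bases apart), the GAS element (TTCNNNGAA), C/EBP (TTGCNNAA) and the TATA box (TATAAA). Irg1 held TATAAA from 28 to 23 bases before its RefSeq start. The GENCODE gene begins earlier, at 103046977, while the window ends at 103047011, so this match lies inside the annotated gene. The Odc1 and Ass1 windows also run past the GENCODE starts of their genes. Gch1 held an NF-kB consensus match, GGGGCTCCCC, in the last 10 bases before its start and a TATA match on the other strand 188 to 183 bases before it. The Ass1 and Odc1 windows held none of the 6. Of all promoters, 7.25% held the NF-kB consensus, 6.75% AP-1, 2.98% the interferon element, 7.02% GAS, 9.56% C/EBP and 12.4% TATAAA, so each match is a description of these windows only.

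Nos2 (chr11:78920787-78960254, GRCm38, plus strand) went from a low level to one of the most abundant transcripts of the cell. Its wt level was 3.39 and 6.90 CPM in replicates 1 and 2 at M0, 19425 and 17094 CPM at 8 h, and 17297 and 16246 CPM at 12 h. In Treml4-/- libraries it was 5.15 and 5.42 CPM at M0, 17083 and 16756 CPM at 8 h, and 15560 and 16725 CPM at 12 h. No LPS library came near any M0 library, and the 8 and 12 h ranges lay close together. The mean CPM was 3546-fold that of M0 in wt and 3199-fold in Treml4-/- at 8 h. On the tested scale the change at 8 h was 11.59 ± 0.20 (log2, SE, n = 2 per group, limma adjusted p = 2.26e-12) in wt and 11.39 ± 0.20 (adjusted p = 2.8e-12) in Treml4-/-. Nos2 alone took 1.56 to 1.94% of all reads after LPS and ranked first or second by reads in each of the 8 LPS libraries. Per kilobase of exon it ranked between 3 and 9 of 39470 genes with a known length. The tested genes with the profile nearest to that of Nos2 over the 12 libraries were the chemokine gene Cxcl9, Ptgs2 (the inducible prostaglandin synthase) and the chemokine gene Ccl5. Nearness was the root mean square difference between gene-centred log2(CPM + 1) values, which was 0.27 for Cxcl9, 0.63 for Ptgs2 and 0.67 for Ccl5.

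The genes that feed the synthase rose with it. Slc7a2 (chr8:40862396-40922308, plus strand) stood at 7.06 and 7.65 CPM in wt M0 and at 7.70 and 6.68 CPM in Treml4-/- M0. LPS brought it to 649.9 and 877 CPM at 8 h and 953 and 1167 CPM at 12 h in wt, and to 831 and 861 CPM and then 1037 and 903 CPM in Treml4-/-. The mean was 104-fold higher at 8 h and 144-fold higher at 12 h in wt, and 118-fold and 135-fold higher in Treml4-/-. On the log2 scale these 4 changes came to 6.501, 6.98, 6.69 and 6.89 (SE 0.14 each, limma adjusted p at most 1.52e-11). Slc7a2 shares 635 exon bases with the lincRNA Gm26584 on the other strand, which never exceeded 0.119 CPM.

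Gch1 (chr14:47153895-47189413, minus strand) rose less and was level from 8 h on. It was 20.3 to 23.9 CPM in the 4 M0 libraries, 92.4 to 117 CPM in the 4 libraries at 8 h and 98.1 to 113 CPM in the 4 at 12 h. The ranges at 8 and 12 h overlapped within each genotype. The mean was 4.57-fold (wt) and 4.60-fold (Treml4-/-) higher at 8 h, or 2.14 ± 0.12 and 2.15 ± 0.12 (log2, SE, n = 2 per group). The limma adjusted p was 1.84e-08 in wt and 1.76e-08 in Treml4-/-.

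The 2 enzymes that rebuild arginine from citrulline parted company. Ass1 (chr2:31470207-31520672, plus strand) was 20.0 and 28.9 CPM in wt M0, 295 and 284 CPM at 8 h and 453 and 446 CPM at 12 h. Treml4-/- libraries held 23.8 and 25.6 CPM, then 278 and 246 CPM, then 441 and 462 CPM. Its mean was 11.8-fold higher at 8 h and 18.4-fold at 12 h in wt, and 10.6-fold and 18.3-fold in Treml4-/-, with log2 changes of 3.53, 4.17, 3.35 and 4.14 (SE 0.14 each, limma adjusted p at most 1.56e-09). Ass1 was thus among the genes that still climbed after 8 h.

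Asl (chr5:130011258-130029247, minus strand), the next enzyme, was 61.2 and 66.8 CPM in wt M0 and 71.6 and 63.3 CPM in Treml4-/- M0. At 8 h it was 32.6 and 29.1 CPM in wt and 31.2 and 24.7 CPM in Treml4-/-. At 12 h it was 39.8 and 34.1 CPM in wt and 38.2 and 40.3 CPM in Treml4-/-. The lowest M0 library lay above the highest LPS library. Within a genotype, LPS and M0 libraries did not overlap for 91.1 to 94.2% of all genes tested. The log2 changes were -1.03 at 8 h (limma adjusted p = 1.38e-05) and -0.78 at 12 h (adjusted p = 0.000131) in wt, and -1.25 and -0.76 in Treml4-/- (adjusted p = 2.69e-06 and 0.000158). Set against the median of all genes, these changes were small: scaled by the median of ratios, Asl was -0.20 at 8 h and 0.08 at 12 h in wt, with adjusted p of 0.225 and 0.635. In Treml4-/- it was then -0.51 at 8 h (adjusted p = 0.00691) and 0.05 at 12 h (adjusted p = 0.785). The fall of Asl at 12 h was therefore seen with CPM only, and with the median of ratios no change was called.

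Both arginases still rose between 8 and 12 h, when Nos2 changed little, and no time before 8 h was sampled. Arg1 (chr10:24915221-24927484, minus strand) was almost absent at M0, with 16 and 3 reads in wt (0.309 and 0.0590 CPM) and 8 and 9 reads in Treml4-/- (0.163 and 0.168 CPM). At 8 h it was 7.47 and 1.86 CPM in wt and 7.30 and 6.17 CPM in Treml4-/-. At 12 h it was 123 and 24.4 CPM in wt and 96.7 and 65.6 CPM in Treml4-/-. Every library was higher than all libraries of the time before it, and wt replicate 2 was the lowest library at each of the 3 times. Of all genes tested, 91.1 to 94.2% did not overlap between LPS and M0 within a genotype. From 8 to 12 h that share was 73.7% in wt and 76.9% in Treml4-/-. The ratio of pooled reads to M0 was 24.6 at 8 h (95% interval of the counts 15.6 to 41.2) and 404 at 12 h (258 to 671) in wt. In Treml4-/- it was 40.7 (25.3 to 70.3) and 481 (300.2 to 826). These intervals cover counting error only. On log2(CPM + 1), which understates the change of a gene this low at M0, Arg1 rose by 2.06 ± 0.62 at 8 h (SE, n = 2 per group, limma adjusted p = 0.00867) and 5.58 ± 0.62 at 12 h (adjusted p = 5.2e-06) in wt. Treml4-/- gave 2.73 ± 0.62 (adjusted p = 0.00157) and 6.11 ± 0.62 (adjusted p = 2.46e-06).

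Without wt M1-8h replicate 1, Arg1 in wt at 8 h was not called, with a log2 change of 1.28. In that fit the remaining 8 h library, replicate 2, was set against both M0 libraries. Replicate 2 went from 0.0590 CPM at M0 to 1.86 CPM at 8 h, and replicate 1 from 0.309 to 7.47 CPM. The part of an offset between cultures in this change was not tested. The voom fit on whole reads also left Arg1 in wt at 8 h uncalled, with a change of 4.63 (adjusted p = 0.0671). Summed neutrophil and precursor markers were also lowest in wt replicate 2 at each time, with 48.1 CPM against 118 to 158 CPM in the other M0 libraries, 72.2 against 76.0 to 108 CPM at 8 h, and 48.9 against 55.9 to 66.8 CPM at 12 h. Of these 8 markers 4 to 7 exceeded 1 CPM in a library, and the defining marker Ly6g had 0 reads in 6 of 12 libraries. The part of those cells in the Arg1 values was not tested. By the same measure, the profiles nearest to Arg1, those of Cd300lf, Wnk2 and Gm15056, lay at 0.73, 0.81 and 0.90, against 0.27, 0.63 and 0.67 for Nos2. The measure runs over single libraries, so the gap between the wt replicates of Arg1 enters it.

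Arg2 (chr12:79130777-79156301, plus strand), the mitochondrial arginase, was 1.62 and 1.16 CPM in wt M0, 27.2 and 23.1 CPM at 8 h and 45.4 and 37.0 CPM at 12 h. Treml4-/- libraries held 1.41 and 1.46 CPM, 24.6 and 24.9 CPM, and 36.8 and 36.4 CPM. The mean was 18.1-fold higher at 8 h and 29.6-fold at 12 h in wt, and 17.2-fold and 25.5-fold in Treml4-/-. The log2 changes of 3.46, 4.14, 3.40 and 3.95 had an SE of 0.14 each (limma adjusted p at most 1.26e-09). Arg2 shares 285 of its 1428 exon bases with Vti1b on the other strand and 116 with the antisense gene Gm48780. Vti1b went the other way, from 43.4 to 50.6 CPM at M0 to 32.5 to 41.9 CPM after LPS. The libraries were stranded, but the strand setting of the counting is not given in the sources used here, so reads of that stretch cannot be told apart.

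Odc1 (chr12:17544794-17551505, plus strand) rose early and then receded part of the way. It was 21.6 and 23.8 CPM in wt M0, 75.1 and 56.8 CPM at 8 h and 50.3 and 46.2 CPM at 12 h. In Treml4-/- it was 26.3 and 23.9 CPM, then 61.3 and 57.3 CPM, then 45.7 and 46.4 CPM. Every 12 h library lay between the M0 and the 8 h libraries of its genotype. The 8 and 12 h libraries did not overlap for 73.7% of all genes tested in wt and 76.9% in Treml4-/-, and the fall of Odc1 was not called. At 8 h the log2 rise was 1.49 in wt and 1.21 in Treml4-/-, and at 12 h it was 1.06 and 0.85 (SE 0.13 each), with limma adjusted p of at most 5.61e-05. The nearest profiles to Odc1 were Ccdc86, Sbno2 and Pik3ap1, at 0.08, 0.11 and 0.11, a distance that is small in part because Odc1 itself moved little.

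Irg1 (chr14:103046977-103056573, plus strand) was the most abundant of the 10 per kilobase at M0 and the second after LPS. It was 45.8 and 56.3 CPM in wt M0, 7015 and 6776 CPM at 8 h and 6628 and 7025 CPM at 12 h. Treml4-/- libraries held 42.9 and 45.2 CPM at M0, 7534 and 6950 CPM at 8 h and 7648 and 7082.5 CPM at 12 h. The means were 135-fold and 134-fold higher at 8 and 12 h in wt, and 164-fold and 167-fold in Treml4-/-. The log2 rise was 7.06 (wt) and 7.33 (Treml4-/-) at 8 h, then 7.04 and 7.35 at 12 h (SE 0.10 each, limma adjusted p at most 1.03e-12). Together the 10 genes took 0.0183 to 0.0216% of all reads at M0 and 2.502 to 2.77% after LPS, nearly all of it Nos2 and Irg1.

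Ido1 (chr8:24584136-24597009, minus strand) had 2 and 1 reads in wt M0 and 7 and 6 reads in Treml4-/- M0. At 8 h it was 12.4 and 11.8 CPM in wt and 22.4 and 20.0 CPM in Treml4-/-, and at 12 h 13.9 and 19.5 CPM in wt and 20.4 and 19.8 CPM in Treml4-/-. All 8 LPS libraries were thus far above all 4 M0 libraries. The ratio of pooled reads to M0 was 414 at 8 h in wt, with a 95% interval of 141 to 2011 because the denominator is 3 reads, and 168 (97.9 to 315) in Treml4-/-. The tested log2 rise at 8 h was 3.67 (wt) and 4.30 (Treml4-/-), followed by 4.08 and 4.22 at 12 h (SE 0.15 each, limma adjusted p at most 1.15e-09). That scale, log2(CPM + 1), understates the change of a gene this low at M0. On the log2 CPM scale as deposited, the rise at 8 h was 8.54 in wt and 7.33 in Treml4-/-. Which genotype rose more therefore depends on the scale and on the few M0 reads. The nearest profiles to Ido1 were the C-type lectin gene Clec4e at 0.22, Parp11 at 0.25 and Gm4841 at 0.25.

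**Figure D2:**
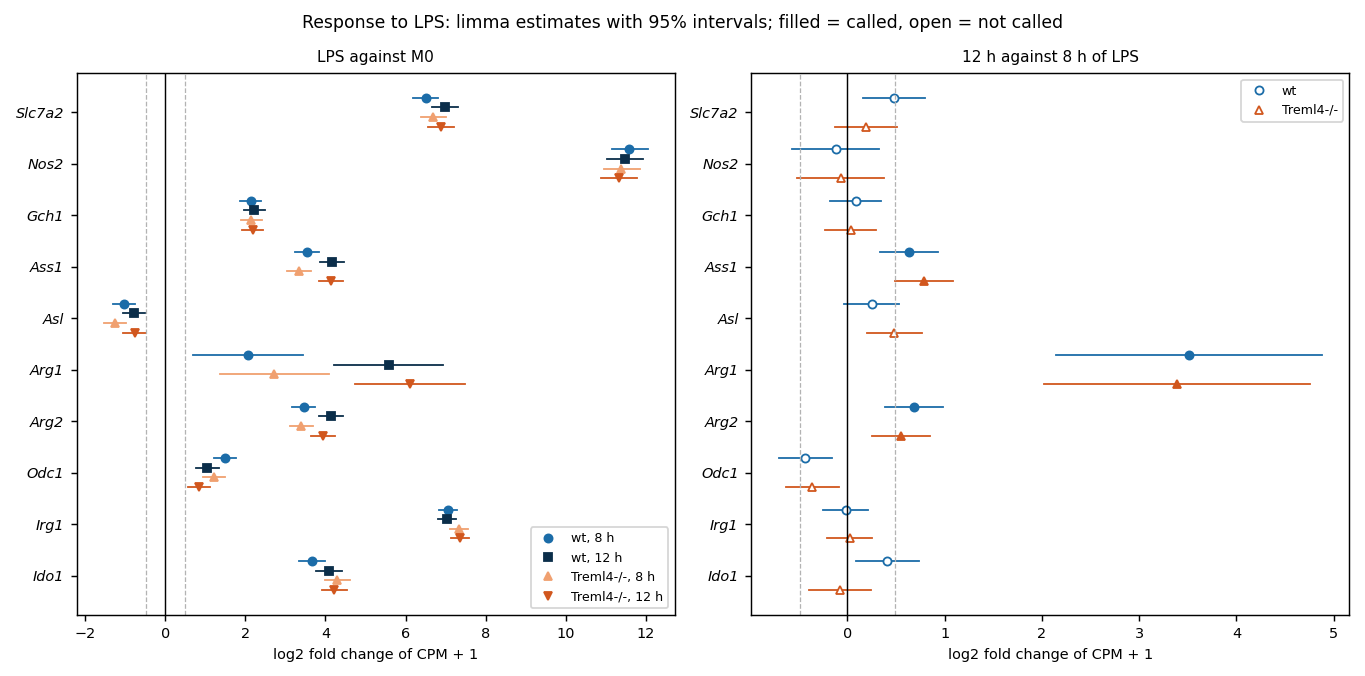
Log2 fold change of CPM + 1 for each gene with its 95% interval from limma, for LPS against M0 on the left and for 12 h against 8 h on the right, with dashed lines at 1.4-fold in each direction, filled symbols for called changes and open symbols for the others. On the left 9 genes lie above 0 and Asl below, and on the right only Arg1, Ass1 and Arg2 are filled in both genotypes.

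The direct comparison of 12 h with 8 h of LPS separated genes that had levelled off from genes that had not. In wt 3 members were called higher and 0 lower, where 14.0% of all genes were called higher and 17.6% lower. In Treml4-/- 3 were called higher and 0 lower, against 12.9% and 19.4%. They were Arg1, Arg2 and Ass1 in both genotypes. Arg1 was 15.8-fold higher at 12 than at 8 h in wt and 12.1-fold in Treml4-/- (log2 3.51 ± 0.62 and 3.39 ± 0.62, limma adjusted p = 0.000908 and 0.00116). The wt size moved with the library left out. Without wt M1-12h replicate 1 the log2 change of Arg1 was 2.37 from 8 h and 4.43 from M0. Without replicate 2 it was 4.66 and 6.72. Each time the remaining 12 h library was set against both libraries of the earlier time. Replicate 2 was the lower wt library at 8 h too, with 1.86 against 7.47 CPM. The part of an offset between cultures in this range was not tested. Arg2 was 1.64-fold and 1.48-fold higher (log2 0.69 and 0.55, adjusted p = 0.00178 and 0.00664). Ass1 was 1.55-fold and 1.72-fold higher (log2 0.63 and 0.79, adjusted p = 0.00308 and 0.000818).

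The other genes changed by less than 1.4-fold on the tested scale. Nos2 differed by -0.12 in wt (95% interval -0.56 to 0.32) and -0.07 in Treml4-/- (-0.51 to 0.38), and Irg1 by -0.01 (-0.24 to 0.22) and 0.02 (-0.21 to 0.25). Odc1 was lower at 12 h in both genotypes with an adjusted p under the threshold, but its size of -0.43 in wt (limma adjusted p = 0.0159) and -0.36 in Treml4-/- (adjusted p = 0.0354) missed 1.4-fold. Slc7a2 in wt, at 0.48 (adjusted p = 0.0186), and Asl in Treml4-/-, at 0.48 (adjusted p = 0.00962), fell just short of the 0.49 that 1.4-fold requires. Ido1 was 0.41 higher in wt (adjusted p = 0.0371) and -0.07 in Treml4-/- (adjusted p = 0.704). Some of these passed 1.4-fold when settings changed. With the median of ratios, Slc7a2 in wt was called at 0.51 (adjusted p = 0.0169) and Asl in Treml4-/- at 0.56 (adjusted p = 0.00794). Without wt M1-12h replicate 1, Slc7a2 (0.63), Odc1 (-0.49) and Ido1 (0.64) were called in wt, and without wt M1-8h replicate 2 Slc7a2 (0.70) and Odc1 (-0.63) were. Asl in Treml4-/- was called at 0.65 without M1-8h replicate 1 and at 0.52 without M1-12h replicate 1. It was also called at 0.50 with pseudocount 0.1, with voom and on the deposited log2 scale (adjusted p = 0.0089, 0.0106 and 0.00964).

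Per kilobase of exon, the order of the genes changed with LPS. In wt M0 the mean levels ran from Irg1 at 19.5 CPM per kilobase through Asl at 13.3, Ass1 at 10.1, Odc1 at 6.66 and Gch1 at 3.67 to Nos2 at 1.17, Arg2 at 0.974 and Slc7a2 at 0.805. Nos2, Arg2 and Slc7a2 could not be ordered among themselves, since neighbouring ranges overlapped. Arg1 at 0.0825 and Ido1 at 0.0160 came last. At 12 h in wt the order was Nos2 at 3801, Irg1 at 2603, Ass1 at 186, Slc7a2 at 116, Arg1 at 33.1, Arg2 at 28.9, Gch1 at 17.7, Odc1 at 14.2, Ido1 at 9.13 and Asl at 7.64 CPM per kilobase. The ranges of Arg1 and Arg2 overlapped there, as did those of Ido1 and Asl. At 8 h Arg1 was still the lowest of the 10 in both genotypes, at 2.09 CPM per kilobase in wt and 3.02 in Treml4-/-, and by 12 h it stood at rank 5 in both. Asl went from the second place at M0 to the last at 12 h.

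Other genes of the same pathways were taken from 5 lists. As CPM, 16.1 to 17.7% of all genes tested were called higher and 58.1 to 60.6% lower in the 4 comparisons with M0. With the median of ratios, 31.7 to 33.8% were called higher and 30.5 to 32.7% lower. In the arginine list (transporters, nitric oxide regulators and ornithine and creatine enzymes), 9 of 15 genes were tested, and 2 were called higher and 6 lower in each of the 4 comparisons with M0. The median change at 12 h was -0.96 in wt and -1.03 in Treml4-/-, beside -0.77 and -0.74 for all genes. Scaled by the median of ratios, the counts were 2 higher and 2 lower in wt at 8 h, 3 and 5 in wt at 12 h, 2 and 4 in Treml4-/- at 8 h, and 2 and 5 at 12 h. Gatm, the first enzyme of creatine synthesis, which uses arginine, rose from 25.0 to 39.5 CPM at M0 to 160 to 257 CPM after LPS. Slc3a2, the heavy chain shared by several amino acid transporters, rose from 279 to 314 CPM to 513 to 761 CPM. Both rose under either scaling. Oat, which links ornithine to proline and glutamate, fell from 96.6 to 112 CPM at M0 to 26.9 to 39.8 CPM after LPS, also under either scaling. Ddah2, which clears methylated arginines that inhibit nitric oxide synthase, was called lower in all 4 comparisons under both scalings as well, with log2 changes of -1.32 to -1.86 as CPM. Slc7a1, the constitutive arginine transporter, was called lower in all 4 comparisons as CPM (log2 -0.87 to -1.80) and at 12 h only under the other scaling. Nos1, Nos3, Ddah1, Agmat, Otc and Cps1 did not pass the filter.

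All 13 polyamine genes were tested. As CPM, 58.1 to 60.6% of all genes tested were called lower. Of the polyamine genes, 2 were called higher and 8 lower at 8 h and 3 and 7 at 12 h, in wt and in Treml4-/- alike. With the median of ratios the counts were 5 and 4 in wt at 8 h, 5 and 5 in wt at 12 h, 3 and 4 in Treml4-/- at 8 h, and 4 and 5 at 12 h, so the list as a whole had no direction apart from the scaling. Smox, spermine oxidase, rose from 99.9 to 113 CPM at M0 to 434 to 529.5 CPM at 12 h. Azin2, an inhibitor of the antizymes that degrade ornithine decarboxylase, rose by 1.16 to 1.33 (log2). Srm, spermidine synthase, fell from 9.41 to 12.4 CPM at M0 to 0.271 to 0.437 CPM at 12 h, and Amd1, which supplies the aminopropyl donor, from 25.8 to 38.0 CPM to 4.12 to 5.77 CPM. Dohh, a hydroxylase of the spermidine-derived hypusine, fell by 1.47 to 2.17 (log2). These 5 genes were called in the same direction under both scalings in all 4 comparisons.

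Of 6 tetrahydrobiopterin genes 4 were tested, and limma called 0 higher in each comparison under both scalings. As CPM, where 58.1 to 60.6% of all genes were called lower, 4 were lower at 8 h in both genotypes. At 12 h 3 were lower in wt and 4 in Treml4-/-. With the median of ratios, 1 and 3 were lower in wt and 2 and 3 in Treml4-/- at 8 and 12 h. Spr, which makes the last step to the cofactor, fell from 22.5 to 24.2 CPM at M0 to 2.88 to 3.66 CPM at 12 h under both scalings, while Gch1 upstream of it rose. Qdpr, which regenerates the cofactor, was lower by 2.44 in wt and 2.30 in Treml4-/- (log2) at 12 h, called under both scalings. Pcbd2 was lower by 1.38 and 1.49 at 12 h, but at 8 h it was called as CPM only. Gchfr and Pcbd1 did not pass the filter.

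All 24 genes of the tricarboxylic acid cycle and itaconate list were tested. As CPM, 0 were called higher and 21 lower in wt at both times, where 60.6% and 60.4% of all genes were called lower. In Treml4-/- 22 and 21 were called lower at 8 and 12 h, against 58.1% and 59.6% of all genes. Scaled by the median of ratios, 3 were higher and 7 lower in wt at 8 h, 3 and 10 in wt at 12 h, 1 and 8 in Treml4-/- at 8 h, and 2 and 10 at 12 h. The list medians then lay between -0.10 and -0.30, with 30.5 to 32.7% of all genes called lower. Idh1, the cytosolic isocitrate dehydrogenase, had the largest fall of the list under both scalings in each comparison at 8 h, from 327 to 399.9 CPM at M0 to 14.4 to 19.0 CPM at 8 h, and stood at 17.8 to 26.4 CPM at 12 h. Idh2, the mitochondrial enzyme that acts on the same substrate, fell later, from 54.4 to 74.5 CPM at M0 to 11.5 to 29.9 CPM at 8 h and 1.91 to 4.29 CPM at 12 h. At 8 h in Treml4-/- the fall of Idh2 was not called with the median of ratios (log2 -0.76). Fh1, fumarase, fell from 41.1 to 50.8 CPM to 6.25 to 6.75 CPM at 12 h under both scalings.

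Of 15 tryptophan and kynurenine genes 10 were tested, with 5 called higher and 3 lower at 8 h and 4 and 4 at 12 h in each genotype. With the median of ratios the counts were 6 and 2 at 8 h and 4 and 4 at 12 h. Kynu, kynureninase, rose from 0.887 to 1.08 CPM at M0 to 24.7 to 32.8 CPM at 8 h, and Ido2, the paralog of Ido1, from 0.138 to 0.281 CPM to 7.67 to 13.8 CPM. Il4i1, a secreted amino acid oxidase that acts on tryptophan and phenylalanine, rose from 1.16 to 2.03 CPM to 13.9 to 31.0 CPM. From 8 to 12 h, 0 of the 10 tested genes were called higher and 6 lower in each genotype by limma. Of all genes, 17.6% were called lower between these times in wt and 19.4% in Treml4-/-. Slc7a5, which imports tryptophan with Slc3a2, was lower by 1.97 in wt and 2.26 in Treml4-/- (log2) at 12 h. Haao and Ccbl1, enzymes further down the kynurenine route, were called lower in all 4 comparisons under both scalings. Tdo2, Kmo, Qprt, Acmsd and Aadat did not pass the filter.

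**Figure D3:**
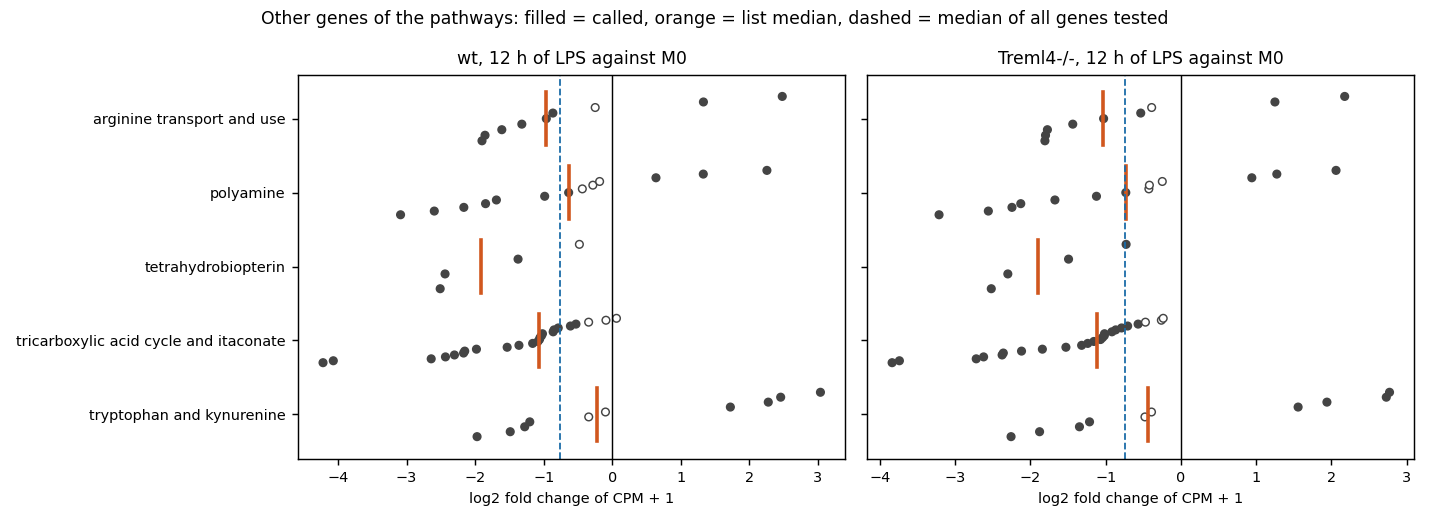
Log2 fold change of CPM + 1 at 12 h of LPS against M0 for each tested gene of 5 pathway lists, wt on the left and Treml4-/- on the right, with filled points for called genes, an orange bar at the median of each list and a dashed blue line at the median of all genes tested (-0.77 in wt and -0.74 in Treml4-/-). The tricarboxylic acid cycle and tetrahydrobiopterin lists have no called gene above 0, and the medians of all lists but the tryptophan and polyamine ones lie left of the dashed line.

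The comparison of genotypes asked whether loss of Treml4 changed these genes. By limma, 0 of 10 members were called at M0, where 0.0993% of all genes were called, 0 of 10 at 8 h (0.0910% of all genes) and 0 of 10 at 12 h (0.132%). The difference between genotypes in the LPS response was called for 0 of 10 members at 8 h and 0 of 10 at 12 h, where 0.00827% of all genes, a single gene, was called at each time. At an unadjusted p under 0.05 the count was 1 at 8 h, 1 for the response at 8 h and 0 in the other 3 comparisons, and both times the member was Ido1. Of all genes 21% were under that p at 8 h and 6.67% for the response at 8 h, so 1 of 10 members is not set apart from them. The voom fit called 0 of 10 in each.

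Ido1 was higher in both Treml4-/- libraries than in both wt libraries at 8 h, 22.4 and 20.0 CPM against 12.4 and 11.8 CPM. The mean was 1.75-fold that of wt, and the log2 difference was 0.76 ± 0.14 (SE, 95% interval 0.44 to 1.08, n = 2 per group). The limma p was 0.000287 before and 0.104 after adjustment over all genes, and the adjusted p lay between 0.0508 and 0.473 over 20 alternative settings, so the difference did not pass the threshold in any of them. At 12 h the ranges did not overlap either, 20.4 and 19.8 CPM against 13.9 and 19.5 CPM, but the difference was 0.27 (95% interval -0.05 to 0.59, adjusted p = 0.753). The genotypes did not overlap for 51.9% of all genes tested at 8 h and 43.1% at 12 h, and among members also not for Nos2 and Ass1 at 8 h and Gch1, Arg2 and Irg1 at 12 h. At M0 it rested on 13 reads against 3, a ratio of 4.34 with a counting interval of 1.19 to 23.7. The difference in the LPS response at 8 h was 0.63 (adjusted p = 0.729) on log2(CPM + 1) and -1.21 (adjusted p = 0.726) on the deposited log2 scale, which weighs those few M0 reads more. On the deposited scale Ido1 was also called at M0, with 2.01 (adjusted p = 0.0131). Ido1 appears in a pathway heatmap that the study drew from these libraries, so its values are not independent evidence of a direction. Those pathways came from genes the study called between genotypes with DESeq2, another test on read counts, at thresholds of the same size. The limma fit here did not call Ido1 at 8 h, and the 2 tests were not compared.

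For the remaining members the intervals set how large a difference could have gone unseen. At 8 h Nos2 differed by -0.11 (95% interval -0.55 to 0.34) and at 12 h by -0.06 (-0.50 to 0.39). Irg1 differed by 0.07 (-0.16 to 0.30) and 0.11 (-0.12 to 0.34), and by -0.20 (-0.43 to 0.03) at M0. Ass1, Asl, Arg2, Gch1, Odc1 and Slc7a2 had estimates between -0.16 and 0.16 at the 3 times. The largest bound in size for any of these 6 was 0.48, for Slc7a2 at 8 h, just under a 1.4-fold difference. That limit holds for CPM only. Scaled by the median of ratios, some estimates lay further from 0, though none was called. At 8 h Ass1 then differed by -0.277 (SE 0.158), Asl by -0.274 (SE 0.145) and Odc1 by -0.267 (SE 0.135). A 1.4-fold difference is therefore not excluded under that scaling.

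Arg1 was far less certain. Its difference was 0.65 at 8 h (95% interval -0.72 to 2.02) and 0.52 at 12 h (-0.85 to 1.89), because the wt replicates themselves differed 4.02-fold at 8 h and 5.06-fold at 12 h. Leaving out wt replicate 2 of the same time turned the Arg1 difference to -0.14 at 8 h and -0.62 at 12 h, and leaving out wt replicate 1 made it 1.43 and 1.67. A difference of Arg1 between genotypes was not detectable with these replicates.

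**Figure D4:**
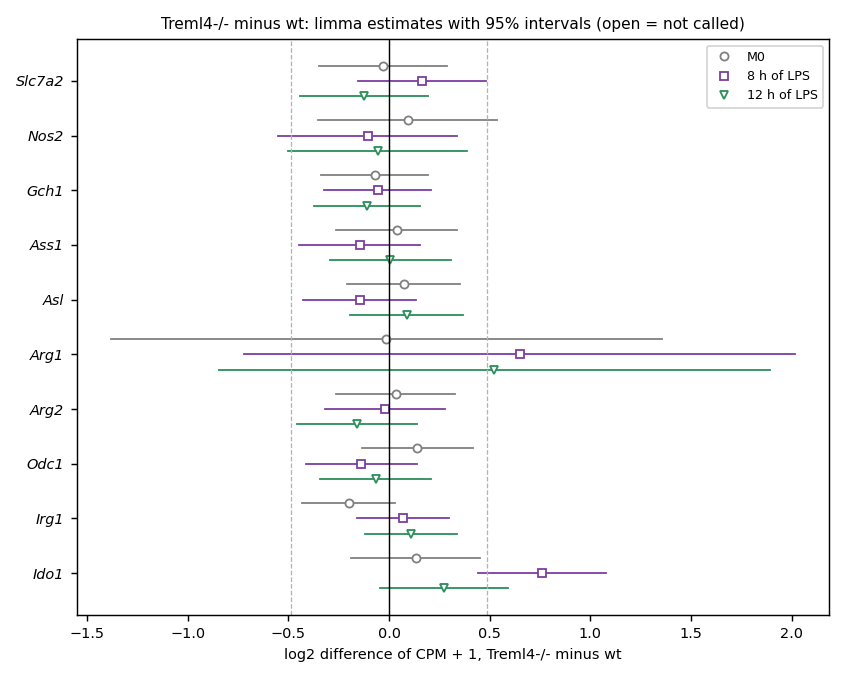
Difference between Treml4-/- and wt in log2(CPM + 1), Treml4-/- minus wt, with 95% intervals from limma for each gene at M0 (circles), 8 h (squares) and 12 h (triangles), all open because none was called, and dashed lines at 1.4-fold. Ido1 at 8 h is the one estimate whose interval leaves out 0, and the intervals of Arg1 reach from -1.38 to 2.02.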

How the data were processed

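The submitters' notes name STAR and build mm10. Per the file headers and values, the authors deposited log2 CPM per gene for the 12 libraries, with a prior of 0.25 reads scaled to library size. The values were turned back into whole reads (100% within 0.01) and CPM. Since the test was planned on CPM, the deposited log2 scale served as an added alternative, chosen after seeing the data.

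Genes with at least 1 CPM in 2 libraries were tested with limma 3.58.1 (trend) in R 4.3.3 on log2(CPM + 1), all 12 libraries in 1 fit with 1 mean per condition and 6 residual degrees of freedom. P-values were adjusted by Benjamini-Hochberg over 12086 genes, and 1.4-fold was the smallest change called. The script was tested on simulated data. The smallest two-sided exact permutation p for 2 against 2 is 0.333, so single genes were tested in the fit alone. Intervals of read ratios are exact and cover counting error only.

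Members and lists were chosen with earlier results of these data known. Named from each list were up to 3 genes per direction with the largest change called in both genotypes at a time, and genes that did not pass the filter. From the tetrahydrobiopterin list 1 gene is not reported here, and it is left out of that list's counts and median. For Nos2, Arg1, Ido1 and Odc1 the 3 nearest profiles were named. Gene positions and exon lengths come from GENCODE M21 (GRCm38), and promoters from RefSeq. Alternatives were the pseudocount, the filter, the scaling, voom, a replicate block, the libraries in the fit and leaving out each library.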

Additional observations from a re-analysis of the deposited data

How the results depend on the processing

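All 9 rises with LPS kept their direction and call in every alternative, except Arg1 in wt at 8 h, which was uncalled with voom and without wt M1-8h replicate 1. With only 2 cultures per group, calls between genotypes depended on single libraries. Genes at a few reads in M0 (Arg1, Ido1) changed with the pseudocount, and CPM values depend on the scaling.

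Over all genes, the 11 genes called between genotypes at 8 h became 7 without a filter and 5 with only the libraries of the comparison. The 16 at 12 h became 7 without a filter and 10 with voom, and the 12 at M0 became 6 with only the libraries of the comparison. The difference in the LPS response was called for 2 genes at 8 h without a filter, and for 0 genes at either time with voom (741 and 422 at an unadjusted p under 0.05) or on the deposited log2 scale (788 and 461). Leaving out 1 library gave 7 to 219 genes at M0 (219 without wt M0 replicate 1), 8 to 598 at 8 h (598 without Treml4-/- M1-8h replicate 1) and 6 to 79 at 12 h (79 without wt M1-12h replicate 1). It gave 1 to 3 genes for the response at 8 h and 1 to 33 at 12 h (33 without wt M0 replicate 1). With the median of ratios the genotype calls split into 6 higher and 7 lower at 8 h (7 and 4 with CPM) and 8 and 12 at 12 h (10 and 6).

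The sign turned for estimates that had not been called, and for Asl at 12 h, whose estimates with the median of ratios were not called. With pseudocount 0.1, Arg1 at M0 between genotypes was 0.060 and the Ido1 difference in response was -0.015 at 8 h and -0.53 at 12 h. With the median of ratios, Asl at 12 h was 0.077 in wt and 0.046 in Treml4-/-, Irg1 in wt from 8 to 12 h was 0.015, and Nos2 in Treml4-/- was 0.0035. With voom, Arg1 at M0 was 0.24 and the Ido1 responses were -1.04 and -1.56. On the deposited log2 scale they were 0.27, -1.21 and -1.72.

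Leaving out 1 library moved Arg1 between genotypes over -0.17 to 0.14 at M0, -0.14 to 1.43 at 8 h and -0.62 to 1.67 at 12 h, and its difference in response over -0.12 to 1.45 and -0.61 to 1.68. From 8 to 12 h, Gch1 ranged over -0.084 to 0.26 in wt and -0.039 to 0.11 in Treml4-/-, Irg1 over -0.057 to 0.027 and -0.034 to 0.083, and Ido1 in Treml4-/- over -0.15 to 0.0025. The Ido1 difference in response at 12 h ranged over -0.090 to 0.37. The cause was not tested.

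The labels do not say whether same-numbered samples share a mouse or culture, and the correlation of their deviations ran from -0.27 to 0.46, with several under 0.1, so the numbers were not taken as pairs. With the replicate block, 9302 genes were called in wt at 8 h against M0, and 12, 12 and 15 between genotypes at M0, 8 h and 12 h. No member's call changed with the block, whether by number or by number within genotype.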
